A study of Mus musculus with 8 samples.

Results

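The MYC, MAX and MXD network was examined through 10 genes, Myc, Mycn, Max, Mxd1, Mxd3, Mxd4, Mxi1, Mnt, Mga and Cdca7, in mouse CD8 T cells sorted for strong staining of PD-1, an inhibitory receptor. They are 10 of the 22180 genes with an array row of exactly 1 gene symbol. The row of each gene was chosen by its mean signal over the 8 arrays, so that the brightest one stood for the gene. Only Mxi1 had a choice, between rows with means of 6.79 and 5.87 on the log2 scale, and the other 9 genes had 1 row each. The genes themselves were put together with earlier results of these arrays in view, in which Mxd4 and Cdca7 were among the most changed genes and Myc had been named. The differences given here are therefore descriptions.

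The cells came from the spleens of female mice (C57BL/6, with the strain field spelled C56BL/6) that had been transplanted with leukaemia cells of Eµ-TCL1 mice, a transgenic model of chronic lymphocytic leukaemia that arises from B cells. From 3 weeks after the transplant, 1 group received a blocking antibody to the interleukin 10 receptor (anti-IL-10R) and the other the matching isotype control, and cells were taken at 5 weeks. Each group had 4 arrays, every animal carried leukaemia, and no age was stated. The sorted cells were Lin- TCRb+ CD8+, had little CD127, at least intermediate CD44 and the most PD-1. The labels do not say whether each array was a separate animal or a pool, and p-values therefore reflect only how arrays of a group vary, which may be technical.

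MYC is a transcription factor that works as a pair with MAX and binds the DNA sequence CACGTG, the E-box, to switch on genes of growth, metabolism and division. The MXD proteins and MNT pair with MAX as well, take up the same sites and bring in the SIN3 corepressor with histone deacetylases, and MGA joins MAX in a repressive Polycomb complex. In T cells, MYC is induced by antigen receptor and cytokine signals and drives the growth of the activated cell, while several MXD genes are known from resting and differentiating cells.

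Values are log2 signals of the Affymetrix Mouse Gene 2.0 ST array, on which a difference of 1 is a 2-fold change; the level of a gene cannot be set against that of another gene, because each has its own probes. Array medians were 5.19 to 5.31. Isotype replicate 1 stood apart, with correlations across genes (which are not independent replicates) of 0.915 to 0.929 with the other arrays, against 0.962 to 0.986 among those 7. Many results are therefore also given without it. Differences given without such a mention include it. Cd3e, Cd8a, Cd8b1 and Pdcd1, the defining markers of the sorted cells, had a mean signal of 11.22 to 11.61 in the isotype arrays. After anti-IL-10R it was 11.79 to 11.83. Isotype replicate 1 had the lowest mean, and the other isotype arrays had 11.51 to 11.61. None of the 4 passed the test used below (limma, 4 with unadjusted p below 0.05). For each the groups did not overlap, with anti-IL-10R higher, which held for 9.32% of all tested genes. Unadjusted p below 0.05 was common over all tested genes, so nothing is read from counts of it here or below. The gene Dnmt1, for example, had an unadjusted p of 0.0489 and an adjusted p of 0.247 (limma). Of 23 markers of other cell types, 15 lay below 5.24, the limit under which a gene was called dim, and none passed the test (limma, 1 with unadjusted p below 0.05). The mean of 7 B cell markers ranged over isotype arrays from 5.04 to 5.69 and over anti-IL-10R arrays from 4.96 to 5.18. The mean of 7 myeloid markers was 4.49 to 5.21 and 4.61 to 4.75, of 4 dendritic cell markers 5.28 to 5.55 and 5.31 to 5.52, of 2 natural killer cell markers 3.80 to 4.90 and 3.98 to 4.30, and of 3 CD4 T cell markers 4.87 to 5.90 and 4.73 to 5.13. The highest isotype means of the myeloid, natural killer and CD4 T cell markers were all those of isotype replicate 1. The other isotype arrays had 4.49 to 4.63, 3.80 to 4.10 and 4.87 to 5.09. For dendritic cell markers isotype replicate 1 had the lowest mean, 5.28, and for B cell markers it had 5.30, inside the range of the others. The part of other cells in the results was not tested.

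The clearest differences under IL-10 receptor blockade lay at Mxd4 and Cdca7. Mxd4, a MAX partner that opposes MYC, was higher, and Cdca7, a gene that MYC and E2F factors activate, was lower. Myc and Mxd3, the latter another opposing partner, were lower by smaller amounts (−0.59 and −0.52) that did not pass the test. Max itself had nearly equal means. Of the 9 genes bright enough to be tested, Mxd4 and Cdca7 passed an adjusted p of 0.05 in limma's fit over 12019 genes, where 2.53% of all tested genes did (148 higher and 156 lower). Nothing is read from this count, because the changes were known when the genes were put together. After quantile normalization the same split was 204 higher and 427 lower, and with arrays centred on their medians it was 42 and 75. For Mxd4, Cdca7 and Myc the groups did not overlap, which held for 15.3% of all tested genes (9.32% higher and 5.99% lower). In RNA from sorted cells, fewer cells of a kind and less RNA in each cell cannot be told apart.

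**Figure D1:**
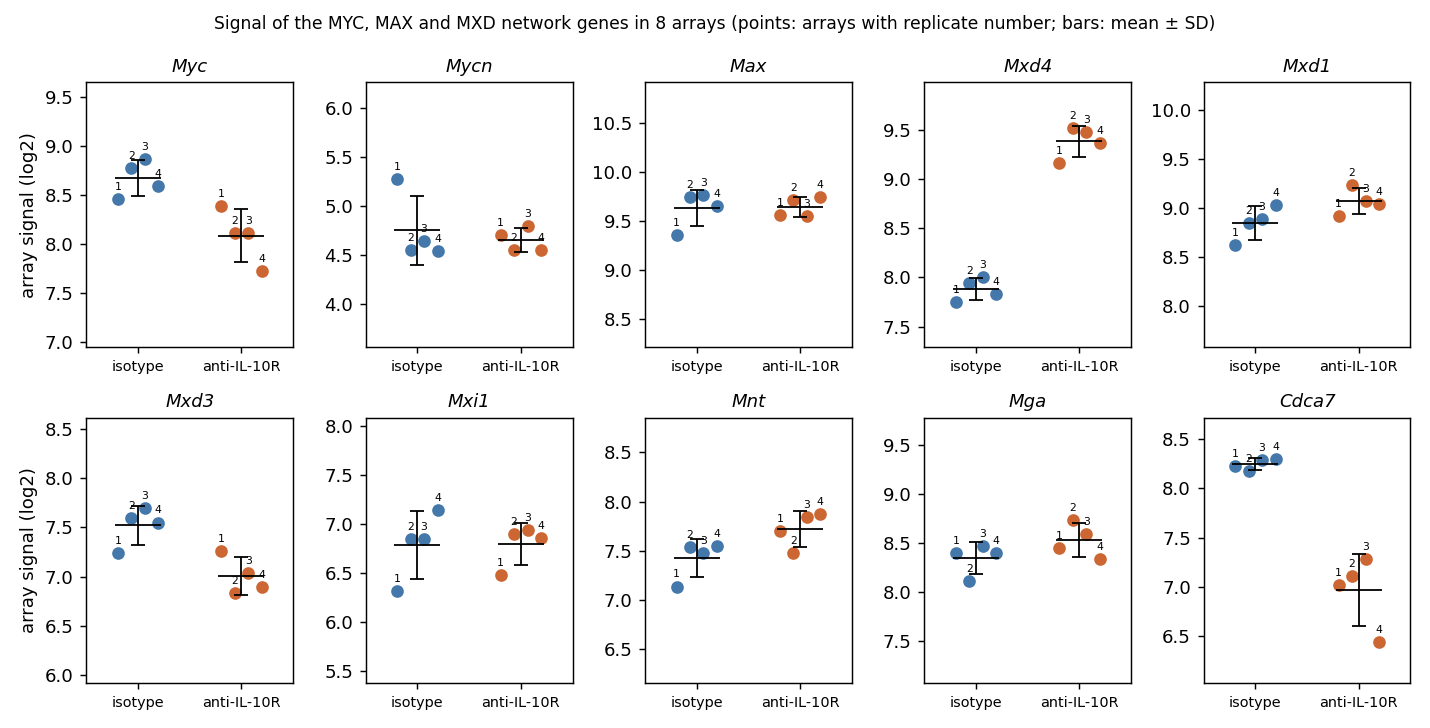
Array signal (log2) of each of the 10 genes in the 4 isotype and 4 anti-IL-10R arrays; points are arrays with their replicate number, bars are mean ± SD, and every panel spans the same range of log2 units. Mxd4 lies at 7.75 to 8.01 in the isotype and 9.17 to 9.52 under anti-IL-10R, Cdca7 at 8.18 to 8.30 and 6.44 to 7.29, and Max overlaps.

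Mxd4 encodes a short MAX partner of the MXD family that recruits SIN3. Its signals were 7.75, 7.94, 8.01 and 7.83 in isotype replicates 1 to 4 and 9.17, 9.52, 9.48 and 9.37 in anti-IL-10R replicates 1 to 4. The groups were well apart, with more than a log2 unit between the highest isotype and the lowest anti-IL-10R array. The mean went from 7.88 ± 0.11 (SD, n = 4) to 9.39 ± 0.16, which is 1.504 ± 0.12 (SE) more, or 2.84-fold (95% CI 2.36 to 3.41). Of the 12019 tested genes, 10 had a larger positive difference. Without isotype replicate 1 the difference was 1.46, and over 17 alternative settings it lay between 1.45 and 1.58.

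The window around the annotated start of Mxd4 is shown because it holds an E-box, the site for which MYC and the MXD proteins compete. It covers chr5:34187661-34187960 on the minus strand of GRCm38.p6 (RefSeq), 250 bases before to 50 after the start, printed along the gene with the E-box in capitals 219 bases before the start.

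Mxd4: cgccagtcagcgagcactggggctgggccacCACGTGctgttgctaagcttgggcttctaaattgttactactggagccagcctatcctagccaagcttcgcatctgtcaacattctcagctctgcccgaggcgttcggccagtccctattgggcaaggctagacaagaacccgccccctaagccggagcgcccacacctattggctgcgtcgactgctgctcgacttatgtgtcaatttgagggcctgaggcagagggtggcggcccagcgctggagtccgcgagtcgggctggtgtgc

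Such windows, 11 in all, were at hand for 9 of the 10 genes (not Myc), and CACGTG, which reads the same on both strands, was found in those of Mxd4, Max and Mnt, against 7.15% of 32851 windows of all genes. That share counts windows, of which a gene can have several. Counted by gene, 1073 tested genes held CACGTG in a window and 8366 did not. The match is a description of letters and no evidence of binding. To compare the 3 sites, 41 bases around each are given, with the E-box in capitals; that of Max (chr12:76962199-76962498, minus strand) spans the start, and that of Mnt (chr11:74830674-74830973, plus strand) begins 123 bases before it.
Mxd4: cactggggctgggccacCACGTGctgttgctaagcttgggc
Max: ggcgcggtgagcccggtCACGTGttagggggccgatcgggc
Mnt: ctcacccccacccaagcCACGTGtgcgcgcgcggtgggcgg
The 3 genes that share the motif did not share a direction beyond their errors: Mxd4 was higher, and the differences of Max and Mnt had intervals that included 0.

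Myc, the activating partner, had signals of 8.46, 8.78, 8.87 and 8.59 in isotype replicates 1 to 4. In anti-IL-10R replicates 1 to 4 it had 8.39, 8.11, 8.11 and 7.73. All anti-IL-10R arrays were below all isotype arrays, although anti-IL-10R replicate 1 lay close to isotype replicate 1. The means were 8.67 ± 0.18 (SD, n = 4) and 8.09 ± 0.27, a difference of −0.59 ± 0.16 (SE), or 1.503-fold lower (95% CI 1.18 to 1.92), and it did not pass over all genes (limma adjusted p = 0.0799). Without isotype replicate 1 the difference was −0.66 and passed (adjusted p = 0.0296); over all alternatives the adjusted p ran from 0.0209 to 0.26.

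Mycn, the relative of Myc known from embryonic and neural tissue, was dim. It had 5.27 in isotype replicate 1, 4.54 to 4.64 in isotype replicates 2 to 4, and 4.55 to 4.79 after anti-IL-10R. Its mean, 4.70, was under the limit of 5.24. It therefore entered only the fit without that filter, in which 0.654% of 22180 genes passed (0.302% higher and 0.352% lower). There it differed by −0.10 ± 0.17 (SE, limma adjusted p = 0.832).

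Max, the shared partner of the MYC, MXD, MNT and MGA proteins, was 9.36 to 9.77 in the isotype and 9.55 to 9.75 under anti-IL-10R. Its means, 9.63 ± 0.19 (SD, n = 4) and 9.65 ± 0.10, differed by 0.012 (95% CI −0.26 to 0.29, limma adjusted p = 0.973). The interval excludes changes beyond 1.22-fold up or 1.20-fold down. The sign of this small difference turned with the scaling (−0.040 after quantile normalization) and without isotype replicate 1 (−0.079).

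**Figure D2:**
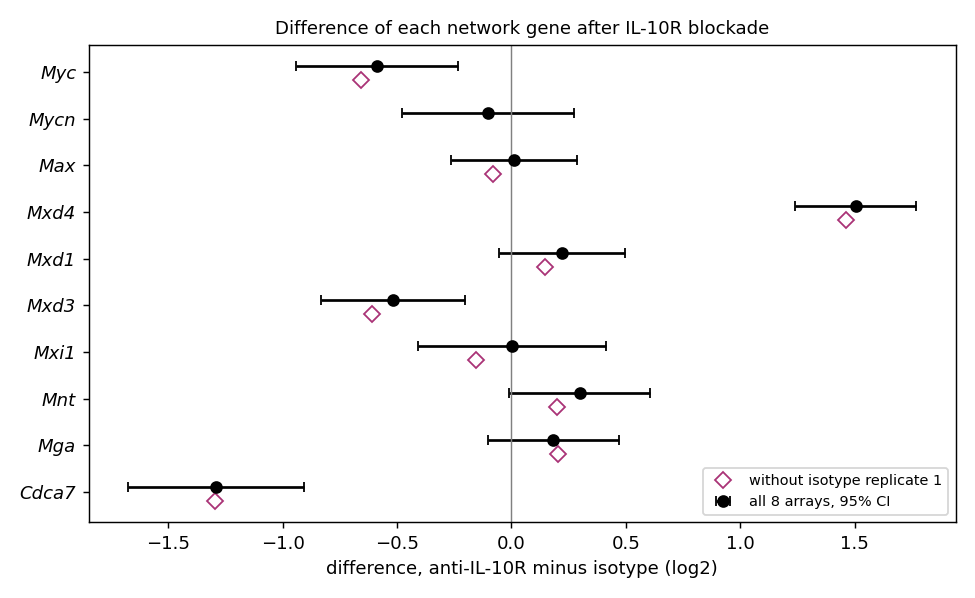
Difference of each gene, anti-IL-10R minus isotype (log2), with 95% confidence intervals from limma over all 8 arrays (Mycn from the fit without the filter on dim genes); open diamonds give the difference without isotype replicate 1. The interval of Max runs from −0.26 to 0.29, that of Mxd4 from 1.24 to 1.77.

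None of the other 5 opposing partners passed the test. Mxd1, which is induced as cells stop dividing and differentiate, had 8.62, 8.85, 8.89 and 9.03 in the isotype and 8.92, 9.24, 9.07 and 9.05 under anti-IL-10R. The groups overlapped, and the difference was 0.22 ± 0.12 (SE, limma adjusted p = 0.356; 0.15 without isotype replicate 1). Mnt, the MAX partner that is expressed in most cells and buffers MYC, had 7.13, 7.54, 7.48 and 7.55 against 7.70, 7.48, 7.85 and 7.87. It differed by 0.30 ± 0.14 (adjusted p = 0.269), with anti-IL-10R replicate 2 inside the isotype range.

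Mga, the large scaffold that joins MAX in a Polycomb complex, ranged from 8.11 to 8.47 in the isotype and from 8.34 to 8.74 under anti-IL-10R. The difference was 0.18 ± 0.13 (SE, limma adjusted p = 0.467), and 0.11 without isotype replicate 2. Mxi1, also called MXD2, ranged from 6.32 to 7.15 and from 6.48 to 6.94, with means of 6.79 in both groups and a 95% CI of −0.41 to 0.41. Its second row was dimmer, with 5.92 ± 0.27 (SD, n = 4) and 5.82 ± 0.18, and did not separate the groups either.

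Mxd3, the MXD member whose expression peaks in S phase, pointed the opposite way from Mxd4. Its signals were 7.24, 7.60, 7.70 and 7.55 in the isotype and 7.26, 6.83, 7.04 and 6.89 under anti-IL-10R. Only isotype replicate 1 and anti-IL-10R replicate 1 kept the groups from separating. The difference was −0.52 ± 0.14 (SE, limma adjusted p = 0.0826), and without isotype replicate 1 it was −0.61 (adjusted p = 0.0178). With that array left out, 4 of the 9 tested genes passed (Mxd4, Cdca7, Myc and Mxd3), where 9.25% of all tested genes did (3.35% higher and 5.90% lower).

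The balance between Myc and the partners that oppose it was set out array by array, as each gene's deviation from its own isotype mean. In anti-IL-10R replicates 1 to 4 Myc deviated by −0.28, −0.56, −0.56 and −0.94, and Mxd4 by 1.28, 1.64, 1.603 and 1.49. The deviation of Mxd4 less that of Myc was 1.57, 2.20, 2.17 and 2.43, against −0.07 to 0.09 in the isotype arrays. Every anti-IL-10R array was thus shifted towards the opposing partner, and Mxd4 made up the larger share of the distance in each.

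For the other partners the same quantity was smaller. It was 0.36 to 1.14 for Mxd1 (isotype −0.15 to 0.27), 0.55 to 1.39 for Mnt (isotype −0.14 to 0.21), 0.39 to 0.95 for Mga (isotype −0.34 to 0.27) and −0.03 to 1.01 for Mxi1 (isotype −0.26 to 0.44). Mxd3 less Myc was nearest to 0, with −0.12 to 0.31 against −0.07 to 0.11 in the isotype arrays. All of these quantities subtract the same Myc deviation, which averaged −0.59 in the anti-IL-10R arrays. For Mxi1 the quantity averaged 0.59 there, although Mxi1 itself deviated by only 0.0036. The arrays with the lowest Myc and the highest Mxd4 were not the same: Myc was lowest in anti-IL-10R replicate 4 and Mxd4 highest in replicate 2. These quantities carry no test, since Myc and Mxd4 had been singled out before.

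**Figure D3:**
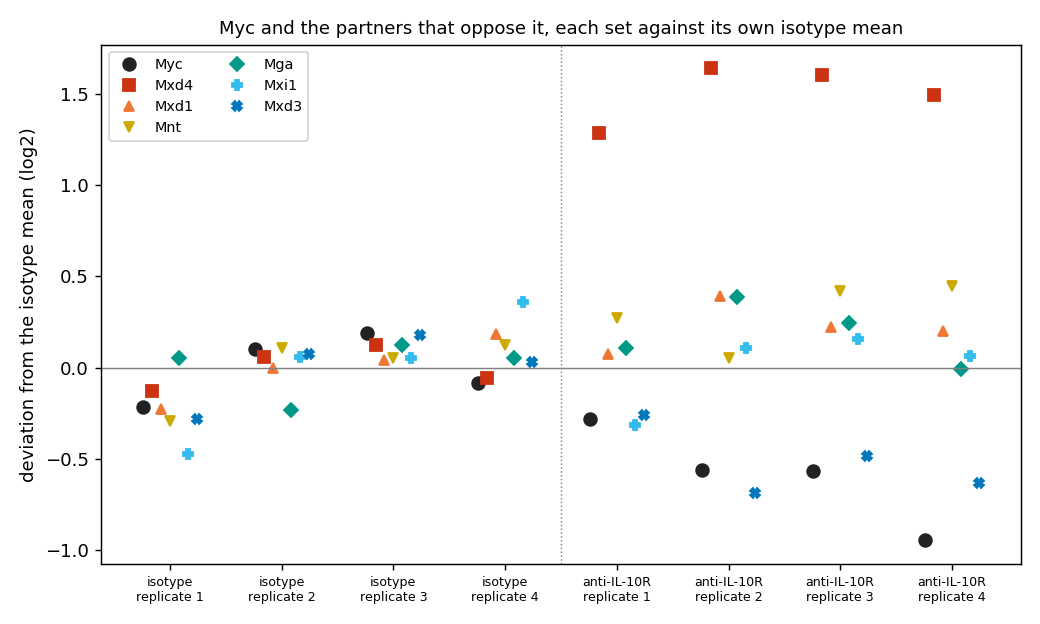
Deviation of Myc and of the 6 opposing partners from their own isotype means (log2) in each of the 8 arrays. In the anti-IL-10R arrays Mxd4 lies at 1.28 to 1.64, Myc at −0.94 to −0.28 and Mxd3 at −0.69 to −0.26. The other partners lie below Mxd4 in each of these arrays, and in replicate 1 Mxi1, at −0.31, lies below Myc and Mxd3 as well.

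Cdca7 encodes a zinc finger protein that activates the chromatin remodeller HELLS at newly replicated DNA, and it is a known target of MYC and of E2F factors. Its signals were 8.23, 8.18, 8.29 and 8.30 in the isotype and 7.02, 7.10, 7.29 and 6.44 under anti-IL-10R. The isotype arrays, replicate 1 included, lay within a narrow range, and all anti-IL-10R arrays were lower, replicate 4 most of all. The means were 8.25 ± 0.06 (SD, n = 4) and 6.96 ± 0.37, and differed by −1.29 ± 0.17 (SE), or 2.44-fold lower (95% CI 1.87 to 3.19). Without isotype replicate 4 and without anti-IL-10R replicate 2 it did not pass, although the difference was then −1.27 and −1.34, nor with the B cell marker mean in the fit (−1.32).

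The Cdca7 window (chr2:72475969-72476268, plus strand, GRCm38.p6, RefSeq) is shown for the E2F motif it holds. The motif was searched as TTTCCCGC or TTTGGCGC on both strands. The match to the reverse complement of TTTCCCGC, in capitals, begins 71 bases before the start; 1.07% of all windows hold this motif, and the Cdca7 window holds no E-box. Only Mycn among the other genes held an E2F motif, with TTTGGCGC at 2 places.

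Cdca7: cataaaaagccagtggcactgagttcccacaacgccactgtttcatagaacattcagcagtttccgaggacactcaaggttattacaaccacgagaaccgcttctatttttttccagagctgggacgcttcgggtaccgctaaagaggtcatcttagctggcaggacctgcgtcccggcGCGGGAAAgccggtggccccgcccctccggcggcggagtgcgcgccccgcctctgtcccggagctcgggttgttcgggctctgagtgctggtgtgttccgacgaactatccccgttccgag

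Of 6 genes that act with CDCA7 in DNA methylation, none passed (limma, 4 with unadjusted p below 0.05), and their median difference was −0.30 against 0.03 over all tested genes. Hells, the remodeller itself, differed by −0.49 ± 0.16 (SE, adjusted p = 0.126) and Uhrf1, which recruits DNMT1 to replicated DNA, by −0.66 ± 0.20 (adjusted p = 0.1), and for both the groups did not overlap, although isotype replicate 1 and anti-IL-10R replicate 1 were nearly equal in Uhrf1. Cdca7l, a relative of Cdca7, and Dnmt1, the maintenance methyltransferase, differed by −0.30 ± 0.12 and −0.29 ± 0.13. Without isotype replicate 1 Uhrf1 fell by 0.87 (adjusted p = 0.00592) and was the 1 gene of the list to pass.

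Genes that MYC is known to activate were mostly lower. Of 39 measured genes of a list of 44, 7 fell and none rose (17.9% against 1.30% lower over all tested genes). Another 28 were lower without passing, and the median difference was −0.33. Of all 12019 tested genes, 5439 were lower, whether they passed or not. The list was drawn up from background knowledge with earlier results known, and it was not tested as a set. Leaving out 1 array changed the count widely. Without isotype replicate 1, which had the lowest list mean of its group, 18 fell, but lower calls over all tested genes also went from 156 (1.30%) to 709 (5.90%). With any 1 of the other arrays left out 0 or 1 passed, when 3 to 62 of all tested genes did.

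The 7 genes serve nucleotide, one-carbon and polyamine synthesis and nuclear transport. Nme1, a nucleoside diphosphate kinase, averaged 8.11 ± 0.27 (SD, n = 4) in the isotype and 6.999 ± 0.17 under anti-IL-10R and fell by 1.11 ± 0.15 (SE, limma adjusted p = 0.017). Umps, which makes uridine monophosphate, fell by 1.02 ± 0.17, and Cad, which starts pyrimidine synthesis, by 0.67 ± 0.13. Gart, an enzyme of purine synthesis, fell by 0.63 ± 0.13, Shmt2, the mitochondrial serine hydroxymethyltransferase, by 0.74 ± 0.14, and Srm, spermidine synthase, by 0.67 ± 0.13. Rcc1, the exchange factor that loads Ran with GTP, fell by 0.78 ± 0.15.

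Other well known targets did not pass. Odc1, the ornithine decarboxylase ahead of Srm, differed by −0.16 (−0.43 without isotype replicate 1, when it passed with an adjusted p of 0.0377), Ncl and Npm1, the nucleolar proteins nucleolin and nucleophosmin, by −0.30 and −0.23, and Ldha, lactate dehydrogenase, by −0.17. Ccnd2, a D-type cyclin, had the opposite sign, 0.42, with groups that did not overlap (limma adjusted p = 0.118), and Tert, the telomerase subunit, differed by 0.75 with overlapping groups. These were chosen after their values were seen.

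**Figure D4:**
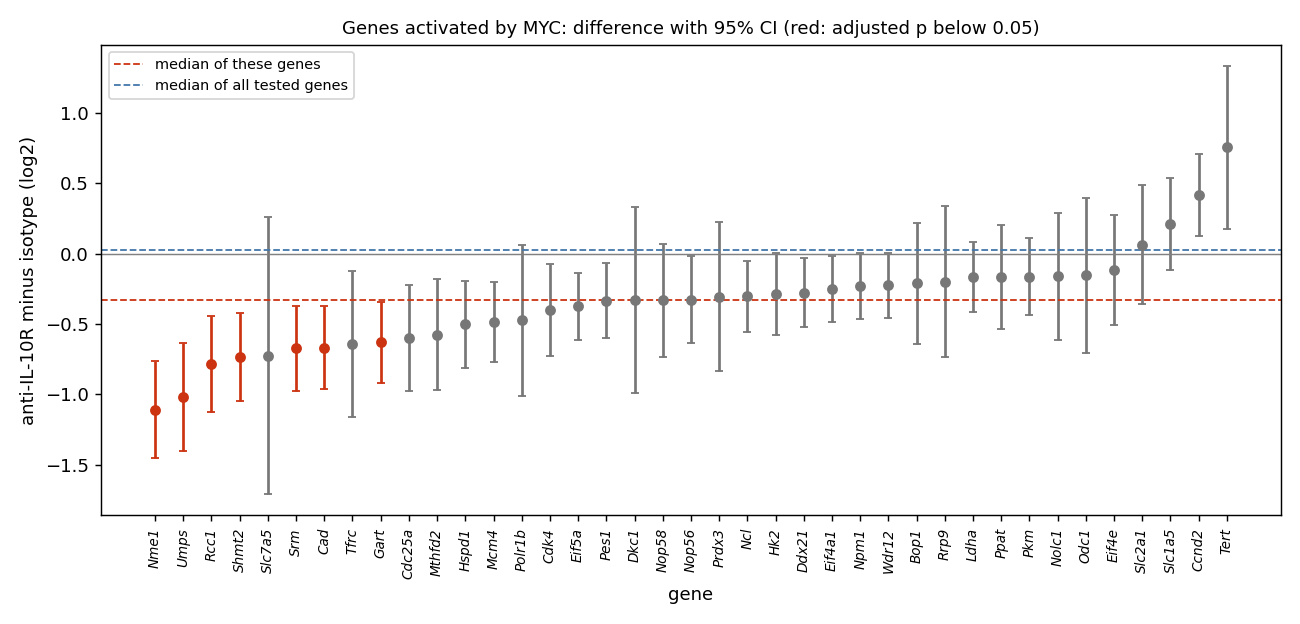
Difference, anti-IL-10R minus isotype (log2), of the 39 measured genes activated by MYC, with 95% confidence intervals from limma; red marks the 7 genes with an adjusted p below 0.05. The red dashed line is their median, −0.33, and the blue one the median of all tested genes, 0.03.

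Across arrays the mean of these 39 genes was 8.55, 9.05, 8.93 and 9.15 in isotype replicates 1 to 4 and 8.62, 8.59, 8.59 and 8.49 under anti-IL-10R. Isotype replicate 1 thus fell among the anti-IL-10R arrays, and anti-IL-10R replicate 4, which had the lowest Myc and the lowest Cdca7, was lowest here too. The mean of 19 cell cycle genes moved with the groups as well, with 9.49 to 9.86 in the isotype and 9.04 to 9.27 under anti-IL-10R. Of these 19 genes 8 fell and none rose (42.1% against 1.30% lower over all tested genes), with a median of −0.62. When isotype replicate 1 was left out 17 fell, where 5.90% of all tested genes were called lower, and with any 1 other array left out 0 to 2 fell. Mxd3, Cdca7 and many MYC targets are themselves expressed mainly in dividing cells, and the part of the cell cycle in their differences was not tested.

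**Figure D5:**
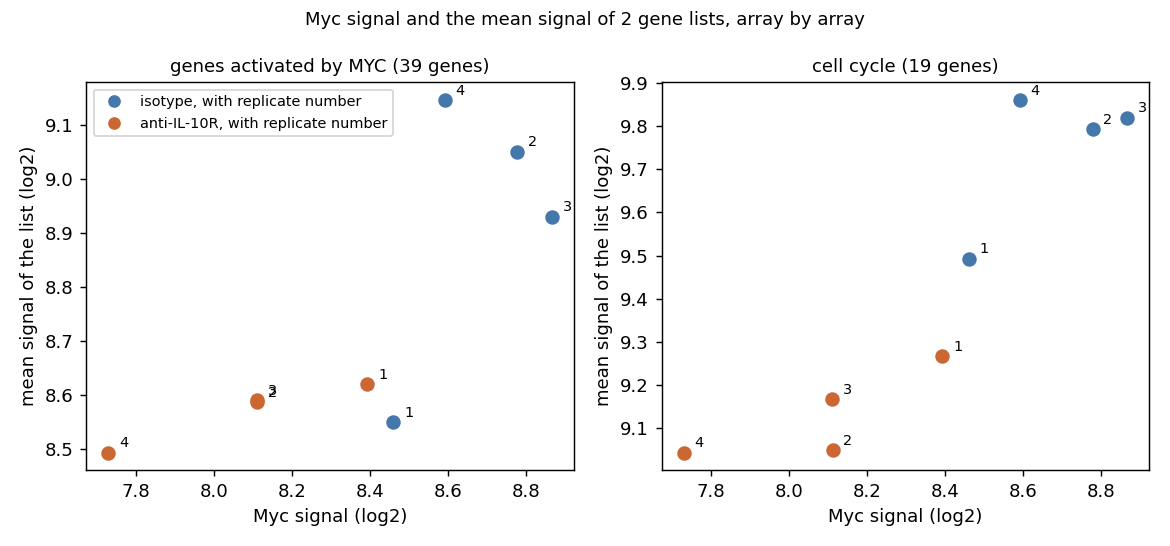
Myc signal (log2, horizontal) against the mean signal (log2, vertical) of 39 genes activated by MYC and of 19 cell cycle genes, 1 point per array with its replicate number. Anti-IL-10R replicate 4 has the lowest Myc, 7.73, and the lowest mean of both lists, 8.49 and 9.04.

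Of 5 measured genes that MYC is known to repress, none passed (limma, 0 with unadjusted p below 0.05), with a median of 0.03. Cdkn1a and Cdkn1b, the cyclin-dependent kinase inhibitors p21 and p27, differed by −0.38 ± 0.18 (SE) and 0.73 ± 0.50, the latter being 0.12 without isotype replicate 1. Ndrg2 and Ndrg1, which belong to a family first described as repressed by MYC, differed by −0.17 ± 0.13 and 0.09 ± 0.18 (−0.06 without isotype replicate 1).

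Few genes of the machinery that the network uses passed. Of 15 genes of the SIN3 and NCoR corepressor complexes none passed (limma, 3 with unadjusted p below 0.05), with a median difference of 0.03, or −0.13 without isotype replicate 1. Arid4a and Arid4b, SIN3 subunits, differed by 0.44 ± 0.15 (SE) and 0.33 ± 0.14, Kdm5a, a histone demethylase, by 0.56 ± 0.24 (0.29 without isotype replicate 1), and Rbbp7, a histone chaperone, by −0.13 ± 0.11. Sin3a, the scaffold that MXD proteins bind and a gene chosen after its value was seen, differed by 0.17 ± 0.15 (0.03 without isotype replicate 1). Of 9 partners of MAX and MGA in the Polycomb complex none passed (0 with unadjusted p below 0.05), with a median of 0.08 that was −0.11 without isotype replicate 1. Yaf2 and Rybp, paralogous RING1 binding proteins, differed by 0.38 ± 0.21 and 0.40 ± 0.30, L3mbtl2 by 0.44 ± 0.45 and Tfdp1, the dimer partner of E2F factors, by −0.22 ± 0.15. Without isotype replicate 1 the first 3 were 0.15, 0.07 and −0.12, and Tfdp1 fell by 0.36 (adjusted p = 0.0379).

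Among 15 coactivators and binding partners of MYC 1 passed (6.67% against 1.23% higher over all tested genes), with a median of −0.07. Mycbp2, a very large ubiquitin ligase first found as a MYC-binding protein, rose by 0.51 ± 0.10 (SE, limma adjusted p = 0.0341), and it passed with 1 array left out only when that was isotype replicate 1. Bptf, a chromatin remodeller subunit, differed by 0.38 ± 0.12, Kat2a, the acetyltransferase GCN5, by −0.26 ± 0.10 and Ruvbl2, a helicase of chromatin complexes, by −0.31 ± 0.15. Of 12 genes of MYC protein turnover none passed (5 with unadjusted p below 0.05), with a median of −0.05, or −0.16 without isotype replicate 1. Huwe1, a ubiquitin ligase for MYC, differed by 0.42 ± 0.11 (adjusted p = 0.0833) with groups that did not overlap. Aurka, a mitotic kinase that protects MYCN from degradation, differed by −0.85 ± 0.25, Cip2a, which inhibits the phosphatase that destabilises MYC, by −0.64 ± 0.20, and Pim1, a kinase that stabilises MYC, by −0.30 ± 0.13. Without isotype replicate 1 Aurka and Cip2a fell by 1.09 and 0.76 (adjusted p = 0.00754 and 0.0411).

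In the parallel branch of the network, MLX pairs with the glucose-sensing MLXIP and also with MXD1, MXD4 and MNT. Of its 2 tested genes 1 rose past the threshold, where 1.23% of all tested genes did. Mlxip rose from 8.54 ± 0.21 (SD, n = 4) to 9.34 ± 0.15, by 0.80 ± 0.14 (SE, limma adjusted p = 0.0273), while Mlx differed by 0.0061 ± 0.14 (−0.080 without isotype replicate 1). With 1 array left out Mlxip passed only without isotype replicate 1 or 3. Mlxipl and Mycl were below the limit for dim genes, with means of 4.94 and 4.86 in the isotype and 4.84 and 4.68 under anti-IL-10R.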

How the data were processed

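RNA of sorted cells was hybridised to 8 arrays, 4 per group as the sample descriptions give them. The log2 values deposited by the authors come from Affymetrix Power Tools; that name is from the submitters' processing notes, and for its version, summarisation and normalization the sources used here give nothing. The scale was read from the range, 1.57 to 13.89. Of 41345 rows, 23521 had 1 symbol in the platform annotation, 1814 several and 16010 no entry; none needed an updated symbol when checked through gene identifiers against RefSeq (GRCm38.p6). The brightest row stood for a gene, and genes with a mean of at least 5.24, the median row mean, were tested (12019 of 22180).

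Differences, SE, confidence intervals and two-sided Benjamini-Hochberg adjusted p-values came from limma 3.58.1 in R 4.3.3 (lmFit, eBayes). The fit was tried on simulated data with independent genes and no outlying array. That trial cannot show how the fit behaves with an array such as isotype replicate 1. Promoter windows are RefSeq's. Genes and lists were chosen with earlier results of these data known. Named were all 10 network genes and, per list, the 4 with the smallest p and up to 6 more past the threshold, except where stated; of the cell cycle list only counts are given. Alternatives were other filters, scalings, row choices, variance models and weights, a replicate block, a B cell covariate and each array left out. List genes without a row of 1 symbol, erythroid markers among them, were not analysed here. The number of arrays limits the precision.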

Additional observations from a re-analysis of the deposited data

Results flagged for a closer look

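Dixon's criterion, which flags about 1 in 20 groups by chance, was applied to 38 groups of 4 arrays. These were 10 genes and 9 gene lists, each in both treatments, without the cell type marker lists. In 4 groups an array lay far from the others. All 4 were isotype replicate 1. Its Mycn signal was 5.27, against 4.54 to 4.64 in the other isotype arrays. It had the lowest mean for the corepressor list (7.96 against 8.65 to 8.71), for MYC protein turnover (7.71 against 8.14 to 8.22) and for the Polycomb complex of MAX and MGA (7.41 against 8.13 to 8.17).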

How the results depend on the processing

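Mxd4 stayed past the threshold in all 17 alternatives and Cdca7 in 13 (not with the replicate block, where its difference was still −1.29 with a limma adjusted p of 0.0744, nor in the 3 settings given with its values), and Mxd1, Mnt, Mga, Mxd3 and Myc kept their direction in all. The number of network genes past the threshold, 2, was 1 with the replicate block, 4 after quantile normalization, 4 with array weights, 1 with the mean of the B cell markers as covariate, and 1 to 4 with 1 array left out (4 without isotype replicate 1). The 304 genes called over the whole array were 4 with the replicate block, 145 without a filter, 460 with a stricter filter, 631 after quantile normalization, 117 with centred arrays, 1469 with array weights, 3 with the B cell covariate, and 3 to 1112 with 1 array left out. The 17 calls over the network lists were 0 with the replicate block, 7 without a filter, 32 after quantile normalization, 7 with centred arrays and 0 to 42 with 1 array left out. The deviation of Mxd4 less that of Myc, 2.09, was 1.98 to 2.27 with 1 array left out.

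Differences near 0 turned sign. Max, at 0.012, was −0.040 after quantile normalization, −0.032 with centred arrays, −0.073 with array weights, and −0.079 to 0.056 with 1 array left out. Mxi1, at 0.0036, was −0.067, −0.040 and −0.16 in the same settings, −0.044 as the mean of both rows, and −0.15 to 0.12 with 1 array left out. Of 108 list medians under the alternatives, 107 moved by less than the spread between arrays, and 61 of 108 list counts stayed within 1.5 times. The cause of these changes was not tested. Arrays with the same replicate number did not deviate together (correlations of −0.10 to 0.02), so the numbers were not taken as pairs.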

Other observations

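Tested genes were also split by the E-box, the site of MYC and the MXD proteins, in their promoter windows. The median difference was 0.02 over 1073 genes with CACGTG and 0.03 over 8366 genes without; 1.4% and 1.41% fell, and 1.03% and 1.26% rose. Of the genes activated by MYC with a window, 8 held an E-box, of which Nme1 fell, and 24 did not, of which Cad, Gart, Rcc1, Shmt2 and Umps fell. Of 226 tested genes with TTTCCCGC on either strand, the motif of the Cdca7 window, 7 fell and none rose (3.1% lower), against 1.37% lower and 1.26% higher among 9213 genes without it. For TTTGGCGC, the other E2F motif searched, 2 of 106 genes fell and 2 rose (1.89% each way). Among 9333 genes without it, 1.4% fell and 1.22% rose. Of the genes activated by MYC, 3 held TTTCCCGC and 0 of these fell, against 6 of 29 without it. These shares are descriptions without a test, and 2580 tested genes had no window.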
